A study of Mus musculus with 2 samples.

Results

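Described here are 7 genes of 32285 in the count matrices, chosen by symbol: the T cell coreceptor genes Cd4, Cd8a and Cd8b1, and Runx1, Runx3, Zbtb7b and Tox, which encode transcription factors of the choice between the CD4 and CD8 lineages. They were followed in YFP-sorted mouse thymus cells of 2 genotypes. Control mice carried Tbx21Cre and the Rosa26-YFP reporter, and cKO mice carried the same 2 alleles with Ets1F/F, a floxed gene for an ETS family transcription factor. Cre is driven by Tbx21, the T-bet gene. By this design YFP and the Ets1 deletion should arise in cells that have at some time expressed T-bet, whatever their type. The deletion was not checked cell by cell. Each genotype gave 1 library from the pooled thymus cells of 2 mice, and no age is stated in the sources. Nothing can therefore be tested between mice, and every interval below is an exact 95% interval of counting error alone. Where a share was 0, the limit printed is 3 counts of the total, and it limits cells with a UMI at that depth, not cells expressing the gene.

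The coreceptors CD4 and CD8 bind the MHC molecule that presents antigen to the T cell receptor. Most CD8 on conventional T cells pairs an alpha chain (Cd8a) with a beta chain (Cd8b1), while some innate-like and intraepithelial T cells carry alpha chains alone. Double-positive (DP) thymocytes make both coreceptors. As they mature, ThPOK, the product of Zbtb7b, holds cells in the CD4 lineage, and Runx3 with its relative Runx1 silences Cd4 and, in the CD8 lineage, Zbtb7b as well. TOX is needed for CD4 lineage cells to form in the thymus and is also made by activated CD8 T cells. Mouse invariant NKT (iNKT) cells, whose receptor uses the Trav11 segment, carry CD4 or no coreceptor and make ThPOK.

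On GRCm38, in the GENCODE vM21 annotation, all 7 are protein-coding. Cd4 (ENSMUSG00000023274) lies on chromosome 6 from 124864692 to 124888221 on the minus strand. Cd8b1 (ENSMUSG00000053044, 71322788 to 71337494) and Cd8a (ENSMUSG00000053977, 71373427 to 71379173) are neighbours on the plus strand of chromosome 6. Runx1 (ENSMUSG00000022952) lies on chromosome 16 from 92601466 to 92826149, minus strand. Runx3 (ENSMUSG00000070691, 135120652 to 135177990, plus strand) and Tox (ENSMUSG00000041272, 6686353 to 6991557, minus strand) lie on chromosome 4. Zbtb7b (ENSMUSG00000028042) lies on chromosome 3 from 89377644 to 89394776, minus strand.

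Because the factors of this set include the 2 Runx genes, the windows around their starts were searched for the RUNX motif ACCACA on both strands. RefSeq promoter windows (GRCm38.p6, 250 bases before to 50 after a start) were at hand for 4 of the 7 genes: 1 for Cd8a and 2 each for Runx1, Runx3 and Zbtb7b. The upstream window of Runx1 and that of Runx3 each held 2 matches whose first bases lie 8 bases apart, and they are shown with the matches in capitals, each 5′ to 3′ on its own gene's strand. The downstream Runx1 and Runx3 windows and that of Cd8a held no match, 1 Zbtb7b window held 1 and the other Zbtb7b window none. Of 32851 windows of this length, 16.8% held at least 1 match and 1.81% held 2 or more. The same windows were also searched for the ETS motif GGAAGT on both strands. The Zbtb7b window without a RUNX match held 2 ETS matches, and the other windows of these genes held none. Of all windows, 23.8% held at least 1 ETS match and 4.18% held 2 or more. The counts come from the 3′ ends of transcripts and do not tell which start was used.
Runx1, chr16:92826025-92826324, minus strand: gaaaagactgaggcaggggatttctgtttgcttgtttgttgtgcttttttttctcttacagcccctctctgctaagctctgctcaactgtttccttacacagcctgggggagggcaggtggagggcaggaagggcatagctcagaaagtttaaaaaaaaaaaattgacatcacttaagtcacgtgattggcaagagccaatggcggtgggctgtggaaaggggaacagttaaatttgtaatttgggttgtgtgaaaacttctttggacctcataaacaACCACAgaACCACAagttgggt
Runx3, chr4:135120395-135120694, plus strand: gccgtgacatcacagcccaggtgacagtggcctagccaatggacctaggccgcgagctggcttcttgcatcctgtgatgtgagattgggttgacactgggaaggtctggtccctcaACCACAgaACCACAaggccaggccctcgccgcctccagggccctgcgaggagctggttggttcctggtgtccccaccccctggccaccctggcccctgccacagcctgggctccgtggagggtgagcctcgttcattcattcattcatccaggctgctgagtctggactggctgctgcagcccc

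The control library held 10102 barcodes and 35210431 unique molecular identifiers (UMIs, counted molecules), and the cKO library 11206 barcodes and 39979742 UMIs, with 29 barcode sequences in both. After barcodes with fewer than 500 genes or more than 10% mitochondrial UMIs were dropped, 7395 control and 5903 cKO cells remained. CD3+ cells, with a UMI of Cd3d, Cd3e or Cd3g and no Rag1 UMI, numbered 7086 and 3543, at median depths of 2701 and 7034 UMIs. To compare shares at 1 depth, cells were thinned to 1500 UMIs each, which left 5026 control and 3428 cKO CD3+ cells. Cells with a Trav11 UMI numbered 178 and 149, and cells with a Rag1 UMI 58 and 57. The cKO library also held 1455 kept cells with at least 2 Epcam UMIs and no CD3 UMI, against 0 in control. The gut epithelium list was detected at 7 of 8 genes in control and 8 of 8 in cKO CD3+ cells, at 8.66 and 691 CPM (UMIs per 1000000) in all. Without the cells that had over 0.5% of UMIs on that list or a Cd79a UMI, the same members were called in CD3+ cells (log2 ratios of 1.74 for Cd8a, 1.32 for Cd8b1 and 0.71 for Tox). That filter acts on gut and B cell transcripts alone, and cannot find T cells that came along with the gut cells. Such a difference in content cannot be told apart from genotype, with 1 library of each.

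Ets1, the targeted gene, gave 498 CPM (491 to 506) in the CD3+ cells of the control library and 165 CPM (160 to 170) in those of the cKO library, 3.02-fold lower (2.93 to 3.13). No source used here places the deleted exons, so 3′ counts may include transcripts of the deleted allele. A gene was called higher or lower in cKO if 1 library exceeded the other at least 1.5-fold, with an interval clear of 1, and held at least 20 CPM. Of 5961 genes at 20 CPM or more in CD3+ cells, 18% were called, 13.2% higher and 4.78% lower in cKO, and the median log2 ratio of all of them was 0.18. Of the calls 73.4% were higher, against 47.8% when totals left out mitochondrial and ribosomal protein genes (median log2 ratio -0.02) and 49.5% with median-ratio scaling (0.01). Of the 7 members, 3 were called higher and 0 lower, with a median log2 ratio of 0.29. Over all kept cells, where 21.6% of 6175 genes were called (16.3% higher, 5.33% lower), only Cd8a, at 2.60 times the control level (2.48 to 2.73), and Cd8b1, at 2.00 times (1.93 to 2.08), were called of the 7.

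Both CD8 chains were higher in the cKO CD3+ cells, and Cd4 differed little. Cd8a was measured at 64.4 CPM (61.6 to 67.2) in control, beside 206 CPM (200 to 211) in cKO, a ratio of 3.20 (3.04 to 3.36). Cd8b1 stood at 119 CPM (115 to 122) and 283 CPM (277 to 290), a ratio of 2.39 (2.30 to 2.48). Cd4 stood at 29.0 CPM (27.1 to 30.9) and 27.2 CPM (25.3 to 29.2), a ratio of 0.939 with an interval (0.852 to 1.04) that includes 1. In summed counts, a larger share of cells with the transcript and more transcript per cell cannot be told apart. After thinning, the share of cells with Cd8a was 5.85% (5.22 to 6.53) for control against 11.6% (10.6 to 12.8) for cKO, and that with Cd8b1 was 9.33% (8.54 to 10.2) against 12.4% (11.3 to 13.5). Unthinned, the shares were 9.51% and 15.1% for Cd8a and 12.3% and 16.1% for Cd8b1. The UMIs were also concentrated: cells with more than 3 Cd8a UMIs held 66.3% of all Cd8a UMIs in control and 97.6% in cKO.

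Among the factors, Tox was higher and the other 3 were not called. Tox was measured at 47.2 CPM (44.8 to 49.6) in control, beside 75.7 CPM (72.5 to 79.0) in cKO, a ratio of 1.60 (1.5 to 1.72). Its call was lost under both other scalings, with log2 ratios of 0.52 and 0.49 against 0.68. Runx3, the CD8 lineage factor, stood at 221 CPM (216 to 226) and 270 CPM (264 to 276), and Runx1 at 48.7 CPM (46.3 to 51.2) and 52.1 CPM (49.5 to 54.9). Zbtb7b stood at 30.0 CPM (28.2 to 32.0) and 26.6 CPM (24.7 to 28.6). The ratios of Runx3, 1.22, and Zbtb7b, 0.885, have intervals that leave out 1 but are short of the size asked for. When cells with a Cd8a or Cd8b1 UMI were left out, the log2 ratio of Tox was 0.066, at 48.9 CPM over 6006 control cells, 51.2 CPM over 2901 cKO cells.

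**Figure D1:**
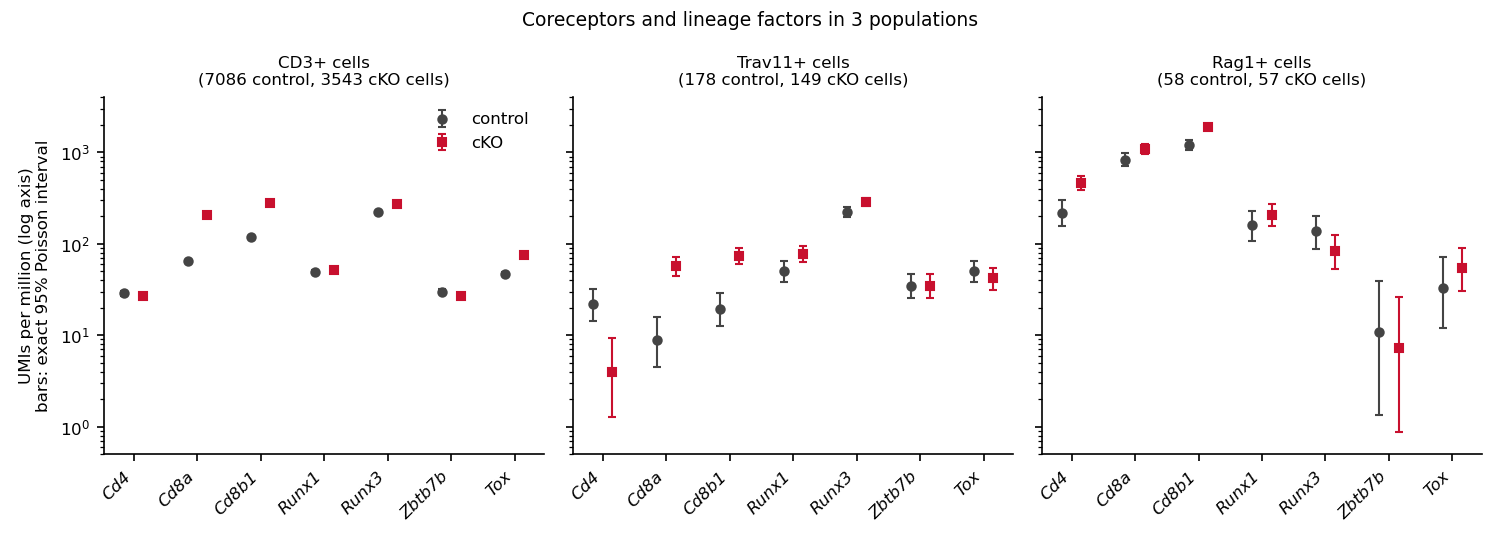
Levels of the 7 genes in CPM (log axis) in CD3+, Trav11+ and Rag1+ cells, control as grey circles and cKO as red squares, 1 library each, with exact 95% Poisson intervals. In CD3+ cells Cd8a, Cd8b1 and Tox separate most, in Trav11+ cells Cd4 is lower in cKO (22.0 and 3.96 CPM), and Rag1+ cells hold the highest coreceptor levels.

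The 3 coreceptor transcripts split the thinned CD3+ cells into classes. Cells with Cd8a and Cd8b1 and no Cd4 came to 3.32% (2.84 to 3.86; 167 of 5026) in the control library and to 9.68% (8.72 to 10.7; 332 of 3428) in the cKO library. Cells with Cd8b1 alone went the other way, at 292 control cells, 5.81% (5.18 to 6.49), and 87 cKO cells, 2.54% (2.04 to 3.12). Cells with Cd4 alone were alike in share, 3.78% (3.27 to 4.35) and 3.41% (2.83 to 4.08). Cells with Cd4 and a CD8 chain were rare, 12 in control and 7 in cKO. No coreceptor UMI was found in 84.5% and 82.3%, which at this depth includes cells whose transcripts were missed. Unthinned, the class with both CD8 chains made up 6.29% and 12.8%, that with Cd8b1 alone 5.41% and 2.09%, and that with Cd4 alone 9.20% and 9.37%.

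B-like cells (at least 2 Cd79a UMIs, no CD3 UMI), which should lack the coreceptors, served as a measure of free RNA. Of 33 thinned control B-like cells 1 held Cd8a and 0 held Cd8b1, and of 164 cKO B-like cells 1 and 2 did. Their median depths were 3958 and 7829 UMIs before thinning. None held both chains and none held Cd4. The classes with 1 chain were not clear of this measure: Cd8b1 alone was found in 6 of 195 unthinned cKO B-like cells, 3.08% (1.14 to 6.58), against 2.09% of cKO CD3+ cells, and Cd8a alone in 3.03% (0.0767 to 15.8) of thinned control B-like cells against 2.39% of control CD3+ cells. In summed counts Cd8a was measured at 6.02 CPM (0.729 to 21.8) in control, beside 1.26 CPM (0.152 to 4.54) in cKO B-like cells, below the CD3+ levels in both libraries.

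**Figure D2:**
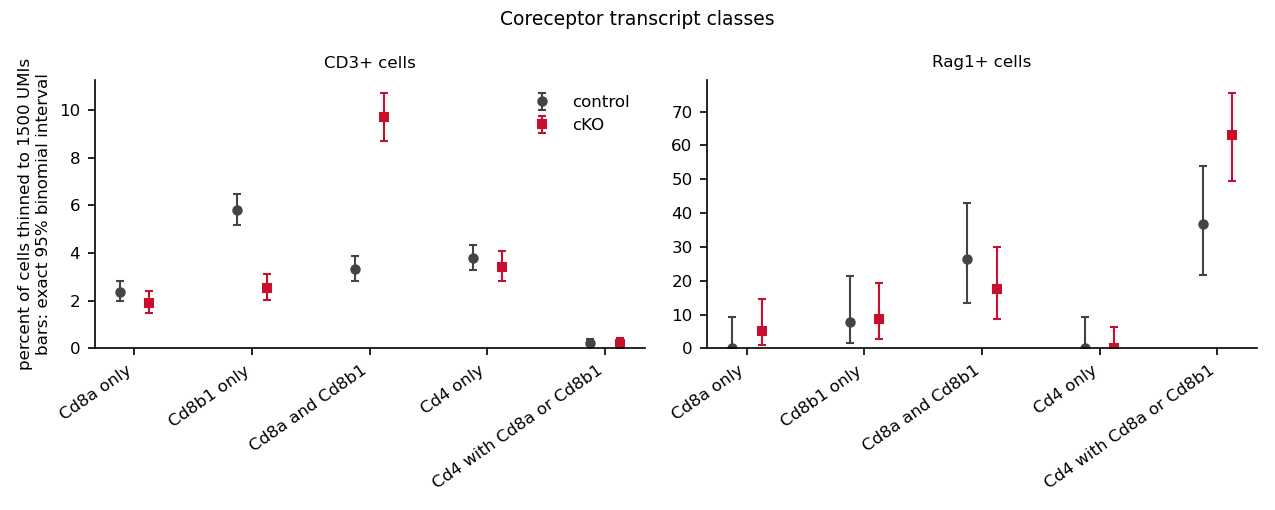
Share of cells thinned to 1500 UMIs in each coreceptor class, in percent with exact 95% binomial intervals, for CD3+ cells (5026 control, 3428 cKO) and Rag1+ cells (38 and 57). In CD3+ cells the class with both CD8 chains is larger in cKO and that with Cd8b1 alone larger in control, while Rag1+ cells fall mostly in classes with several transcripts.

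Cells with both CD8 chains also held more of each in cKO. Cd8a stood at 603 CPM (562 to 646) over the 167 control cells and 1342 CPM (1302 to 1382) over the 332 cKO ones, and Cd8b1 at 922 CPM (871 to 975) and 1831 CPM (1785 to 1877). These cells were chosen on the same transcripts, so the levels describe the classes. A cell with fewer CD8 UMIs is more often seen with 1 chain after thinning. In full counts Cd8b1 was found in 44 of 120 cells classed as Cd8a alone in control and 44 of 65 in cKO. Cd8a was found in 123 of the 292 control cells classed as Cd8b1 alone and 66 of the 87 cKO cells.

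CD8 alpha without beta was therefore counted in 2 ways. Of thinned Cd8a+ cells, 122 of 294 in control, 41.5% (35.8 to 47.4), and 66 of 399 in cKO, 16.5% (13.0 to 20.6), held no Cd8b1 UMI. In full counts, asking for at least 2 Cd8a UMIs, the shares were 10.5% (7.52 to 14.1; 38 of 363) for control and 3.86% (2.31 to 6.04; 18 of 466) for cKO. Rag1+ cells, of which DP thymocytes make both chains, gave 2 of 22 and 3 of 48 thinned, and 0 of 23 and 0 of 50 by the stricter count, which allows up to 13.0% and 6.0%. In CPM, control Rag1+ cells held more Cd8b1 than control CD3+ cells with both chains, so after thinning a missed Cd8b1 is less likely in them. In full counts this does not follow, because the control Rag1+ cells were shallower. Cells classed after thinning with both chains and no Cd4 had median full depths of 2090.5 UMIs (control Rag1+) and 6943 UMIs (control CD3+). How often Cd8b1 was missed in each at full depth was not tested. The share in Rag1+ cells therefore does not measure how often Cd8b1 was missed in CD3+ cells. In CD3+ cells the share without beta was higher in control by both counts, though the stricter one was compared at unequal depth. The control cells without beta were shallow, with a median of 2353 UMIs against 9975 in those with beta. In cKO the medians were 8739 and 9240 UMIs.

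The strict class of alpha without beta, with Cd4+ cells left out too, held 37 control and 17 cKO cells, a class set up after its size was seen. It lay nearer to cells with no CD8 chain in Fcer1g, an adaptor gene of NK and innate-like T cells, but nearer by ratio to cells with both chains in Eomes, a factor of memory CD8 T cells and NK cells. Without beta, Fcer1g stood at 413 CPM (control) and 421 CPM (cKO), against 45.2 and 8.75 CPM in the 315 and 440 cells with beta. Cells with an Fcer1g UMI made up 40.5% and 41.2% of those without beta and 15.2% and 3.41% of those with it. In CD3+ cells with neither chain Fcer1g stood at 276 and 228 CPM and was found in 34.6% and 18.7%, so the gene is not particular to the class. Eomes stood at 100.4 and 75.9 CPM without beta, 154 and 145 CPM with it, and 8.96 and 17.3 CPM with neither chain. Other genes of the CD8 lineage list did not all go with Eomes. Itgae stood at 83.7 and 75.9 CPM without beta, 31.9 and 217 CPM with it, and 89.0 and 116 CPM with neither chain. Gzmk stood at 0 and 105 CPM without beta, 36.7 and 639 CPM with it, and 3.21 and 9.66 CPM with neither chain. The receptor gene Cd160 stood at 179 and 409 CPM without beta against 85.9 and 123 CPM with it and 148 and 269 CPM with neither chain. Trdc, the constant region of the gamma-delta receptor, stood at 11.2 and 561 CPM without beta, 6.95 and 4.16 CPM with it and 25.3 and 59.4 CPM with neither chain. In cKO it lay in 29.4% of the 17 cells. Trav11 was found in none of the cells without beta, 0 of 37 in control and 0 of 17 in cKO, with limits of 3 of 37 and 3 of 17 cells. Over all kept cells it was found in only 178 of 7395 in control and 149 of 5903 in cKO. Sets this small therefore do not tell whether such cells use the segment.

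The lineage factors of the strict class rest on few UMIs except for Runx3. Runx3 was measured at 251 CPM in control, beside 315 CPM in cKO cells without beta, ratio 1.25 (0.830 to 1.91). Tox stood at 33.5 and 52.6 CPM there, from 6 and 9 UMIs, against 32.5 and 177 CPM in cells with beta. Zbtb7b had 3 UMIs in each set, 16.7 CPM for control, 17.5 CPM for cKO. With so few UMIs, no difference between the libraries was detectable for Tox, Runx1 or Zbtb7b in this class.

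Zbtb7b and the CD8 chains were seldom found in the same cell in either library. After thinning, 0 of 167 control and 0 of 332 cKO cells with both CD8 chains held a Zbtb7b UMI, which allows shares with a UMI at that depth of up to 1.80% and 0.904%. In cells with no coreceptor UMI the shares were 4.66% (4.05 to 5.34) and 5.35% (4.55 to 6.25). In full counts of the same cells Zbtb7b stood at 1.5 CPM (0.182 to 5.42) and 3.04 CPM (1.46 to 5.59) with both chains, against 33.1 CPM (30.9 to 35.4) and 31.8 CPM (29.4 to 34.2) with none. The ratios between these classes were 17.7-fold (6.09 to 182) in control, from 2 UMIs, and 9.97-fold (5.65 to 21.9) in cKO. Over all thinned cKO cells with Cd8a, 0 of 399 held Zbtb7b where the product of the 2 shares gives 17.7 cells. In control it was 4 of 294 against 12.8. B-like cells held Zbtb7b in 1 of 33 and 4 of 164, and Epcam+ cKO cells at 37.6 CPM (31.6 to 44.4), so the transcript is not particular to T cells in these libraries.

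Runx3 was higher in cKO in cells with both CD8 chains. It was measured at 212 CPM (188 to 239) in control, beside 389 CPM (368 to 410) in cKO cells of that class, a ratio of 1.83 (1.61 to 2.09). In cells with no coreceptor UMI it stood at 225 CPM (219 to 231) and 255 CPM (249 to 262), a ratio of 1.13 (1.09 to 1.18). Within the control library the class with both chains and that with none thus overlapped in Runx3, whereas in cKO the former was 1.52-fold higher (1.43 to 1.62). In cells with Cd4 alone Runx3 stood at 198 CPM (173 to 226) and 175 CPM (149 to 205), in cKO 1.45-fold lower than in cells with no coreceptor (1.24 to 1.72).

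Runx1 was lower in cells with both CD8 chains, taken as a whole, than in cells with no coreceptor UMI, in both libraries. It was measured at 19.5 CPM (12.7 to 28.6) in control, beside 24.0 CPM (19.0 to 29.9) in cKO cells with both chains, 2.62-fold (1.82 to 4.11) and 2.34-fold (1.88 to 3.0) lower than in cells with no coreceptor. In cells with Cd4 alone it stood at 51.6 CPM (39.1 to 66.9) and 72.5 CPM (55.9 to 92.4), not apart from the 52.1 and 56.5 CPM of cells with none.

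Tox was higher in cKO in every thinned class that held 1 coreceptor or both CD8 chains, and not in cells with none. With both chains it was measured at 41.3 CPM (31.1 to 53.7) in control, beside 202 CPM (187 to 218) in cKO, a ratio of 4.86 (3.72 to 6.58). With Cd8b1 alone the ratio was 4.59 (3.34 to 6.46), with Cd8a alone 3.63 (2.15 to 6.73), and with Cd4 alone 2.23 (1.64 to 3.07). With no coreceptor UMI it stood at 48.2 CPM (45.5 to 51.1) and 50.3 CPM (47.4 to 53.4), a ratio of 1.04 (0.960 to 1.13). The few cells with Cd4 and a CD8 chain held 1 and 8 Tox UMIs, with an interval of the ratio (0.866 to 287) that includes 1. After thinning, a Tox UMI was found in 5.39% (2.49 to 9.98) of cells with both chains in control, beside 28.9% (24.1 to 34.1) in cKO. In full counts the shares were 23.4% and 71.4%. Most cKO cells classed with 1 CD8 chain held the other chain in full counts, as given above. The Tox ratios of those classes thus partly repeat that of cells with both chains. In the strict class of alpha without beta the Tox ratio was 1.53 (0.499 to 5.36), from 6 control and 9 cKO UMIs.

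**Figure D3:**
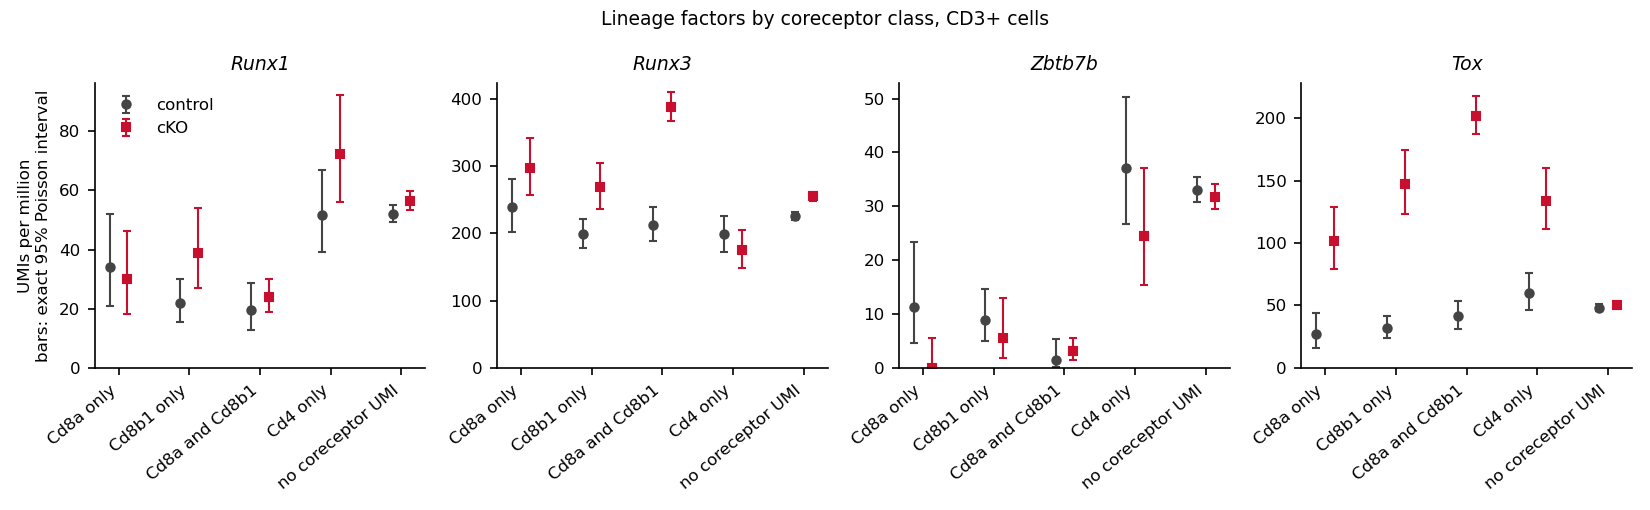
Runx1, Runx3, Zbtb7b and Tox in CPM, summed over the full counts of thinned-class CD3+ cells, by coreceptor class and library, with exact 95% Poisson intervals. Zbtb7b is near 0 with both CD8 chains in both libraries, and Tox separates the libraries in each of the 5 classes drawn but the one with no coreceptor UMI (48.2 and 50.3 CPM).

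The cells with both CD8 chains differed in kind between libraries. Gzmk, a granzyme gene of effector-memory CD8 T cells, was found in full counts in 24 of the 167 control cells, 14.4%, and 301 of the 332 cKO cells, 90.7%. The class was therefore split by Gzmk, a step added after these shares were seen. With a Gzmk UMI (24 control and 301 cKO cells), Tox stood at 59.6 and 207 CPM, a ratio of 3.32 (1.93 to 6.99). Without one (143 and 31 cells) it stood at 38.3 and 148 CPM, a ratio of 3.87 (2.43 to 6.10). Runx3 stood at 265 and 400 CPM with Gzmk, ratio 1.49 (1.13 to 2.05), and at 204 and 257 CPM without it, ratio 1.27 (0.944 to 1.66). Runx1 stood at 43.3 and 21.8 CPM with Gzmk, from 8 and 66 UMIs, ratio 0.476 (0.240 to 1.21). Without Gzmk it stood at 15.7 and 50.6 CPM, from 18 and 13 UMIs, ratio 3.26 (1.45 to 6.97). The control cells with Gzmk and the cKO cells without it are few. The intervals of the subsets overlap for Tox and Runx3 but not for Runx1, which rests on few UMIs.

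Of the CD8 lineage list, Gzmk, Ccl5 and Crtam in cKO and Gzmm, Gzmk and Crtam in control stood highest in the class with both chains relative to cells with no coreceptor. Gzmk was 67.8 times (59.2 to 78.2) as high in cKO, and Gzmm 20.8 times (16.0 to 27.1) in control. Of the innate-like list, Ikzf2, Cd244a and Klre1 came highest in cKO, none of them reaching 1.5 times. The helper and receptor genes of the CD4 list were led by Ctla4 at 1.89 times (1.54 to 2.30) in cKO and by Cd5 at 1.30 times (1.12 to 1.48) in control.

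Cells with Cd4 alone also differed in kind. Foxp3, the factor of regulatory T cells, stood at 1.81 CPM (0.219 to 6.54) in the 190 control and 62.4 CPM (47.2 to 81.1) in the 117 cKO cells, from 2 and 56 UMIs. Tnfrsf4 (OX40) stood at 5.41 times (4.62 to 6.28) and Ctla4 at 5.89 times (4.73 to 7.24) the level of cells with no coreceptor in cKO, and at 2.1 times (1.44 to 2.92) and 1.56 times (0.851 to 2.51) in control. Zbtb16, the PLZF gene that marks iNKT cells, was measured at 66.1 CPM (51.8 to 83.1) in control, beside 19.0 CPM (11 to 30.4) in cKO cells with Cd4 alone, 3.41-fold lower (2.04 to 6.31). For Ets1 itself the levels were 554 CPM (511 to 600) and 320 CPM (284 to 359), which is 1.73-fold lower (1.5 to 2.00), while in cells with no coreceptor it was 3.22-fold lower (3.10 to 3.34). Within cKO, Ets1 was 2.00 times (1.77 to 2.26) as high with Cd4 alone as with no coreceptor. Without the cells holding a Foxp3 UMI, added after these values were seen, Tox stood at 60.1 and 132 CPM, ratio 2.19 (1.60 to 3.03), and Ets1 was 1.88-fold lower (1.62 to 2.20).

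Zbtb7b in cells with Cd4 alone was measured at 37.1 CPM (26.7 to 50.4) in control, beside 24.5 CPM (15.4 to 37.1) in cKO, intervals that overlap. In full counts it was found in 18.9% and 17.9% of these cells, and after thinning in 11 of 190 and 1 of 117. Since the thinned shares fall apart more than the levels do, no difference is read.

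Among Trav11+ cells, Cd4 was lower in cKO. Of 6160 genes at 20 CPM or more there, 23.8% were called, 16.1% higher and 7.69% lower, and of the 7 members 3 were higher and 1 lower, with a median log2 ratio of 0.38 beside 0.16 for all genes. Of the calls 67.6% were higher, against 43.2% without mitochondrial and ribosomal protein genes in the totals and 49.3% with median-ratio scaling. Cd4 stood at 22.0 CPM (14.5 to 32.0) from 27 UMIs in 21 of 178 control cells, and at 3.96 CPM (1.29 to 9.24) from 5 UMIs in 5 of 149 cKO cells, 5.14-fold lower (2.11 to 18.5). The median depths were 6602 and 7038 UMIs. After thinning, Cd4 was found in 7 of 166 and 0 of 146 cells, and the latter bounds only what is seen at 1500 UMIs, since the full counts of cKO hold the 5 cells with Cd4 just given. With mitochondrial UMIs limited to 5% Cd4 no longer reached 20 CPM in either library and was not called, at a log2 ratio of -2.16. Trav11 has annotated near-copies, and taking Trav11d as well gave a log2 ratio of -2.35 for Cd4.

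The CD8 chains were called higher in cKO Trav11+ cells on the counts of a few cells. Cd8a had 11 UMIs in 6 control and 72 UMIs in 8 cKO cells, of which 3 cells held 90.3% and 1 cell 37 UMIs. Cd8b1 had 24 UMIs in 13 control and 94 UMIs in 10 cKO cells. Without the cells of the highest 2.5% of UMIs in each library neither was higher, at log2 ratios of -0.057 and -0.19, against 2.62 and 1.91 with them. The shares of cells were 3.37% and 5.37% for Cd8a and 7.30% and 6.71% for Cd8b1. Cells with both chains and no Cd4 numbered 3 in control and 4 in cKO.

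Of the factors in Trav11+ cells, Runx1 was called higher in cKO. Runx1 was measured at 50.5 CPM (38.7 to 64.7) in control, beside 78.4 CPM (63.7 to 95.4) in cKO, ratio 1.55 (1.12 to 2.17), and was found in 24.2% and 41.6% of cells, or 6.02% and 10.3% after thinning. Its call was lost under both other scalings, at log2 ratios of 0.49 and 0.45 against 0.63. Runx3 stood at 222 CPM (197 to 250) and 289 CPM (260 to 320), ratio 1.30 (1.11 to 1.53). Zbtb7b was at 35 CPM (25.3 to 47.2) and 34.8 CPM (25.3 to 46.8), ratio 0.995 (0.639 to 1.55), and Tox at 50.5 CPM (38.7 to 64.7) and 42.0 CPM (31.4 to 54.9), ratio 0.833 (0.565 to 1.22). Ets1 was 3.20-fold lower (2.75 to 3.76) in these cells.

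Rag1, a recombinase gene, is active in DP thymocytes, and other DP markers were found in more of the Rag1+ cells in cKO than in control. Of the 10 DP markers all were detected in both. The 6 that are neither Rag1 nor a member came to 1606 and 2911 CPM in all, and 60.3% and 96.5% of cells held at least 1 of them. Arpp21, one of the 6, was found in 44.8% of these cells in control (58 cells) and 91.2% in cKO (57 cells). NK markers, 6 of 6 detected in control and 5 of 6 in cKO, where Ncr1 was at 0, came to 445 and 54.8 CPM in all. Rag1 had 166 UMIs in control and 418 in cKO. The part of this difference in content in the results that follow was not tested. Ets1 was not lower here, at 489 CPM (393 to 602) and 658 CPM (566 to 762), so these counts do not show its deletion in the cKO Rag1+ cells.

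In Rag1+ cells 11.2% of 6957 genes at 20 CPM or more were called, 6.91% higher and 4.24% lower, and of the 6 members that reached 20 CPM 2 were higher and 0 lower, with a median log2 ratio of 0.39 beside 0.15 for all genes. Of the calls 62.0% were higher, against 43.4% and 42.2% under the same other scalings. Cd4 was measured at 220 CPM (157 to 300) in control, beside 464 CPM (387 to 553) in cKO, ratio 2.09 (1.47 to 3.09), and Cd8b1 at 1210 CPM (1055 to 1381) and 1901 CPM (1742 to 2072), ratio 1.57 (1.34 to 1.85). Cd8a stood at 836 CPM (708 to 980) and 1093 CPM (973 to 1225), ratio 1.31 (1.07 to 1.60). Among cells with at least 2 Rag1 UMIs, 21 control and 48 cKO cells, Cd4 had a log2 ratio of 0.75 and Cd8b1 of 0.44, and of the members only Cd4 was called higher and only Runx3 lower. The Cd8b1 call was also lost under both other scalings, at log2 ratios of 0.52 and 0.50. Cd4 with a CD8 chain was found in 17 of the 58 cells from control and in 48 of the 57 from cKO, or 14 of 38 and 36 of 57 after thinning.

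The factors in Rag1+ cells rested on few UMIs. Runx1 stood at 159 CPM (107 to 229) and 208 CPM (158 to 270), and Runx3 at 137 CPM (89.0 to 203) and 84.1 CPM (53.3 to 126). Zbtb7b had 2 UMIs in each library and Tox 6 and 15. None of the 4 was called. In the 36 thinned cKO cells with Cd4 and a CD8 chain, Runx1 stood at 308 CPM (217 to 424) and Runx3 at 33.3 CPM (9.07 to 85.2), with 0 Zbtb7b UMIs. In the 14 such control cells, Runx1 stood at 205 CPM (112 to 345) and Runx3 at 73.4 CPM (23.8 to 171).

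Over populations, each gene had its own order of levels. Cd4, Cd8a, Cd8b1 and Runx1 were highest in Rag1+ cells in both libraries, by intervals clear of CD3+ and Trav11+ cells. Runx1 came next in Ncr1+ cells without CD3 in control, at 95.2 CPM (71.1 to 125), then in CD3+ and Trav11+ cells, which did not differ beyond their intervals there. Runx3 was at 249 CPM (209 to 295) in control, beside 320 CPM (269 to 379) in cKO Ncr1+ cells, with intervals that overlap those of Trav11+ cells. It was lower in B-like cells, at 48.2 CPM (27.5 to 78.2) and 98.7 CPM (83.9 to 115), and lowest in Epcam+ cKO cells, at 5.96 CPM (3.73 to 9.02). Zbtb7b in Trav11+ cells did not differ from that in CD3+ cells beyond its interval in either library. It was at 9.03 CPM (1.86 to 26.4) and 10.7 CPM (6.23 to 17.1) in B-like cells. Tox was lowest in B-like cells, at 12.0 CPM (3.28 to 30.8) and 11.3 CPM (6.71 to 17.9), and in Ncr1+ cells stood at 64.1 CPM (44.6 to 89.1) and 51.8 CPM (32.5 to 78.5).

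Most other genes of the lineage choice were not called in CD3+ cells, though many had intervals clear of 1. Of 26 Runx partners and lineage regulators, 23 reached 20 CPM, of which 3 were higher and 2 lower, with a median log2 ratio of 0.24 beside 0.18 for all genes. The 21.7% called is near the 18% of all genes. Among those short of the size asked for, the corepressor gene Ncor1 had a ratio of 1.43 (1.39 to 1.47) and the chromatin organiser gene Satb1 one of 0.757 (0.737 to 0.777). Myb, a regulator of thymocyte development, stood at 11.8 and 33.9 CPM, ratio 2.87 (2.55 to 3.25). The E protein gene Tcf3 had a ratio of 1.57 (1.46 to 1.68) and Runx2, the third Runx gene, 1.55 (1.38 to 1.75). Both of these calls were lost under both other scalings, which kept Myb, Lef1 and Id3. Without mitochondrial and ribosomal protein genes in the totals, Tox2 was called higher and Satb1 lower as well. Tox2, a relative of Tox, lay under 20 CPM in both libraries, at 0.504 and 15.5 CPM, and was not called on the main scale. Id3, an inhibitor of E proteins, was 1.67-fold lower (1.52 to 1.83) and Lef1 1.61-fold lower (1.51 to 1.71). Cbfb, the partner of all Runx proteins, stood at 55.9 and 69.4 CPM, ratio 1.24 (1.16 to 1.33). In Trav11+ cells 22 reached 20 CPM, with Myb (ratio 5.89, 2.92 to 15.1) and Tcf3 (1.55, 1.10 to 2.20) higher and Id3 3.42-fold lower (1.93 to 6.69). The 13.6% called there compares with 23.8% of all genes, and the Tcf3 call was again lost under both other scalings.

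Of 10 CD8 lineage genes 8 reached 20 CPM in CD3+ cells, with 4 higher and 1 lower and a median log2 ratio of 0.65, beside 13.2% of all genes higher and 4.78% lower. Under the other scalings 2 and 3 were higher: Itgae was lost under both, and Nkg7 without mitochondrial and ribosomal protein genes, where Gzmm was also called lower. Gzmk stood at 8.19 and 118 CPM, Ccl5, a chemokine gene of memory T cells, had a ratio of 3.71 (3.67 to 3.75), and Nkg7 one of 1.70 (1.68 to 1.73). Itgae, the CD103 gene, was the fourth, and Ly6c2 was 1.76-fold lower (1.72 to 1.79). Of 10 CD4 lineage genes 8 were measured at that level, with Ctla4 (2.75, 2.40 to 3.15) and Tnfrsf4 (2.47, 2.23 to 2.73) higher, Izumo1r 3.68-fold lower (3.45 to 3.93), and a median of 0.29, calls that held under both other scalings. Of 10 innate-like genes 9 were, with 4 higher and 2 lower, the same genes under both other scalings, and a median of -0.04. The same shares of all genes called, 13.2% higher and 4.78% lower, stand beside these counts. The lists were chosen with earlier results of these data known, so the counts are a description only. Itgax had a ratio of 13.3 (11.1 to 16.1), Ikzf2 of 2.22 (2.14 to 2.30) and Trdc of 2.13 (1.95 to 2.33), Cd160 was the fourth, and Klrb1c and Klre1 were 7.81-fold (7.15 to 8.57) and 2.14-fold (2.03 to 2.25) lower.

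**Figure D4:**
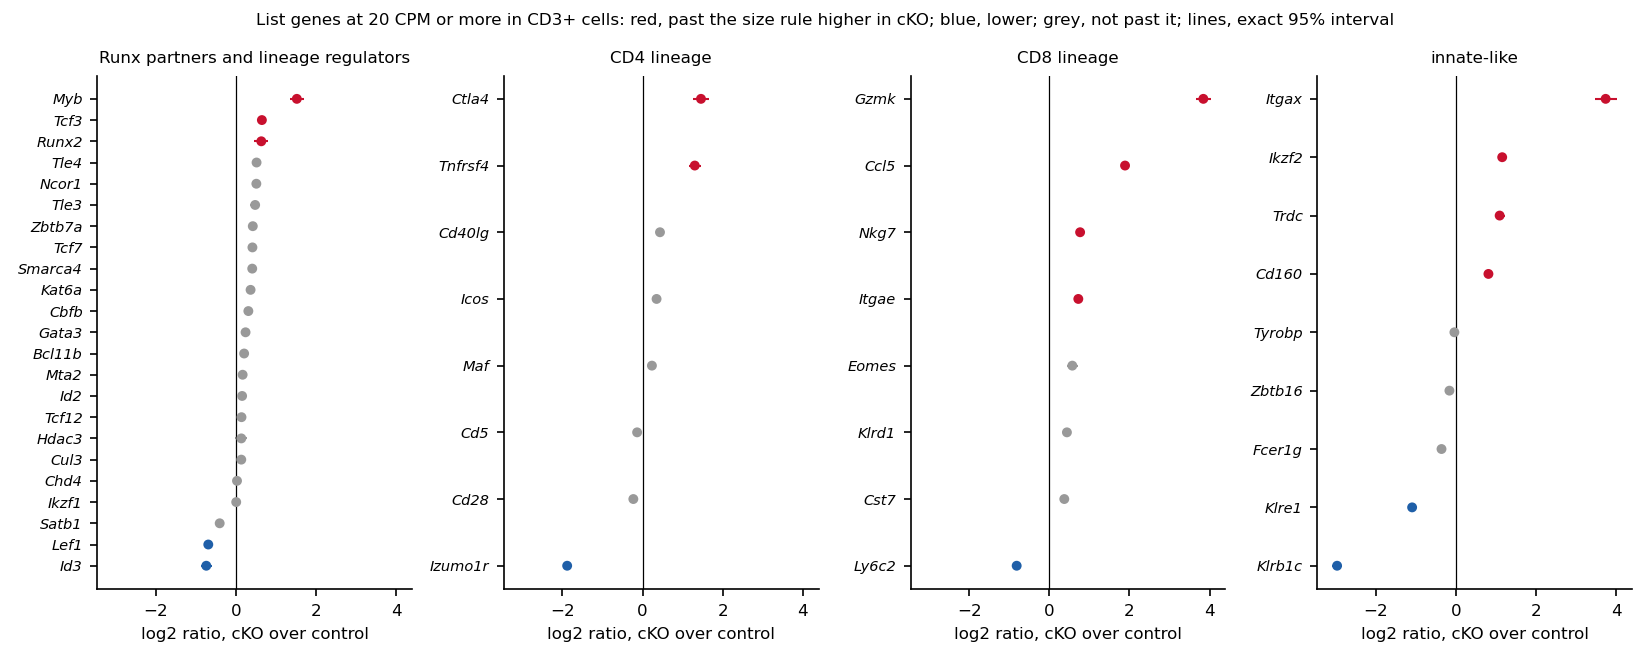
Log2 ratio of cKO over control in CD3+ cells for each list gene at 20 CPM or more, with exact 95% intervals, by list; red and blue mark genes called higher and lower, grey those not called. Lineage regulators cluster near the median of all genes, 0.18, while Gzmk and Itgax stand far to the right and Klrb1c far to the left.

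Across thinned CD3+ cells, the genes most like Cd8a were Cd8b1 (Pearson r 0.428 in control and 0.775 in cKO), Eomes, Ccl5, Gzmk and Plac8, the last at 0.106 and 0.266. For Cd8b1 they were Cd8a, Ccl5, Plac8, Eomes and Themis, the last at 0.162 and 0.166. Cells of 1 library share their depth by thinning and their free RNA, and the values are descriptions over 5026 and 3428 cells. For Cd4, Runx1, Runx3, Zbtb7b and Tox no gene reached 0.1 in both libraries.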

How the data were processed

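Per the labels' protocols, YFP+ thymus cells were sorted and made into 3′ single-cell libraries. The deposited matrices hold whole-number UMI counts, made by the authors with Cell Ranger 2.1.1 on mm10 per the submitters' processing notes, while the matrix headers name software version 3.0.0. No source used here states the settings or annotation.

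Counts were summed over cells and divided by all UMIs to give CPM, with Poisson intervals. Ratios have exact conditional binomial intervals and 0.5 UMIs added to each sum, and shares exact Clopper-Pearson intervals, all at 95%. A count of 0 was set against 3 counts. A single library per genotype allowed no test. Cells were thinned without replacement to 1500 UMIs (shallower ones, 2194 control and 1297 cKO, left out). No doublet caller was run. The mitochondrial filter took 6.76% of control and 28.6% of cKO barcodes. Of the feature identifiers 99.8% were in GENCODE vM21.

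Named were the members, Ets1, Rag1, Trav11, list genes called in CD3+ cells with the 3 highest and 3 lowest ratios, per class the 3 leading list genes, and the 5 genes most like each member where Pearson r (on log counts) reached 0.1 in both libraries. Fcer1g, Cd160, Trdc, Foxp3, Gzmk, Zbtb16, Arpp21, Cbfb, Tox2, Ncor1, Satb1, Eomes, Itgae and Ncr1 were singled out besides. The members and lists were chosen with earlier results of these data known. The Gzmk and Foxp3 splits, the strict Cd8a class and the count without CD8 cells were added after the data were seen. The calling rule was tried on independent Poisson counts simulated from the control CD3+ sums. That simulation held no shift in scale between libraries and no concentration of UMIs in few cells, so it does not cover either. Tools were matplotlib 3.10.9, pandas 2.3.3, scipy 1.17.1 and numpy 2.4.6 under Python 3.11.15.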

Additional observations from a re-analysis of the deposited data

Results flagged for a closer look

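Cd4 was called in opposite directions in 2 populations. In Trav11+ cells its log2 ratio of cKO over control was -2.36 (27 and 5 UMIs), and in Rag1+ cells it was 1.07 (40 and 127 UMIs). The difference between the populations was not tested, since there is 1 library per genotype. The control Rag1+ cells held fewer cells with DP markers, as given above for Arpp21, and the part of this in the Rag1+ value was not tested.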

How the results depend on the processing

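No paired analysis was possible because each genotype is 1 library, and for the same reason no replicate could be left out. In CD3+ cells Cd8a and Cd8b1 were called higher under every setting tried on that population that kept the cells holding them. There, 788 genes were higher and 285 lower in cKO. Leaving mitochondrial and ribosomal protein genes out of the totals gave 627 lower, median-ratio scaling 451 higher and 460 lower, and asking for a ratio of 2 gave 285 higher and 114 lower.

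In Trav11+ cells 991 genes were higher and 474 lower, with 890 lower without mitochondrial and ribosomal protein genes and 1559 higher with cells weighted equally, a setting with no interval, so that ratios alone set its calls. Members lower numbered 0 with mitochondrial UMIs at most 5%, and 2 (Cd4 and Tox) with cells weighted equally or without the highest 2.5% of UMIs, where 1 member, Runx1, was higher. Called log2 ratios turned sign for Cd8b1 with cells weighted equally (-0.087), and for Cd8a (-0.057) and Cd8b1 (-0.19) without the highest 2.5% of UMIs.

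In Rag1+ cells 481 genes were higher and 295 lower. Only 1 member, Cd4, was higher with at least 1000 genes per cell, without mitochondrial and ribosomal protein genes (319 genes higher), with median-ratio scaling (312) and with at least 2 Rag1 UMIs (254, and 1 member lower, Runx3). Weighting cells equally gave 2397 genes higher, 1557 lower and 1 member lower, Runx3.

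Shares moved with the depth of thinning. In control CD3+ cells the share of Cd8a+ cells without Cd8b1 was 55.4% at 1000 UMIs, 28.8% at 2500, 31.3% unthinned, 26.0% with at least 2 Cd8a UMIs, 49.3% with a second random seed and 48.8% without the highest 2.5% of UMIs. In cKO it was 24.1% at 1000 UMIs, 11.7% at 2500 and 9.27% with at least 2 Cd8a UMIs. At every one of these settings it was higher in control. Cells with both CD8 chains made up 1.83%, 5.79%, 6.29% and 1.11% of control and 6.99%, 11.7%, 12.8% and 6.53% of cKO cells at 1000 UMIs, at 2500, unthinned and with at least 2 Cd8a UMIs, each higher in cKO. Cells with Cd4 alone made up 2.77%, 6.46% and 9.20% of control and 2.51%, 5.46% and 9.37% of cKO cells at the first 3, and 4.35% of control cells with mitochondrial UMIs at most 5%. The cause of these shifts beyond depth was not tested.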
